A study of Homo sapiens with 24 samples.

Results

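Expression of the genes that encode cohesin and its regulators was measured by RNA-seq in A549 cells, a human lung adenocarcinoma line. The 10 genes were chosen by name. The core subunits were SMC1A, SMC3, RAD21, STAG1 and STAG2, and the regulators were CDCA5, ESCO2, WAPL, PDS5A and PDS5B. Each gene matched 1 of the 58721 gene rows of the count files, and the 10 genes passed the filter on low counts in every comparison.

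The 24 libraries formed 7 groups. The siMYBL2 and siFOXM1 groups of 4 libraries each received siRNA against MYBL2 or FOXM1 at 25 nM and shared 1 siControl group of 4 libraries that received control siRNA. The siBoth group of 3 libraries received both siRNAs and had its own siControl_Both group of 3 libraries, which received control siRNA. The siRNA dose is given as 25 nM for siControl, siBoth and siControl_Both as well. The FDI-6 group of 3 libraries was treated with 20 µM FDI-6, a small molecule that blocks DNA binding by FOXM1, for 24 h, and had its own control_FDI-6 group of 3 libraries. The labels do not name the agent of control_FDI-6. The study's list of supplements gives it as DMSO, the solvent, while a figure caption of the study calls the control cells untreated. The labels also do not say whether the siRNA dose in siBoth was for each siRNA or for their sum. The study's methods call the replicates biological, and p-values measure the spread between these libraries. All groups were the same cell line.

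Cohesin is a ring of SMC1A, SMC3 and RAD21, to which STAG1 or STAG2 binds. It holds sister chromatids together from S phase until anaphase and folds chromatin into loops. ESCO2 acetylates SMC3 during DNA replication, and CDCA5, also called sororin, then protects the acetylated ring. WAPL opens the ring and releases it, and PDS5A and PDS5B serve as platforms for either outcome. CDCA5 and ESCO2 are known as genes of proliferating cells, while the ring subunits are made throughout the cycle. MYBL2 (B-MYB) and FOXM1 are transcription factors that act on genes of G2 and mitosis, where MYBL2 works with the MuvB complex, which recognises a promoter element called the CHR.

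Counts on genes ranged from 16487394 to 30140550 per library. MYBL2 averaged 6.39 ± 1.88 CPM (read counts scaled to library size with TMM factors, SD, n = 4) with siMYBL2 against 154 ± 18.9 in siControl, and FOXM1 averaged 12.2 ± 1.30 CPM with siFOXM1 against 126 ± 12.99, so each target was lower under its siRNA. FOXM1 was also lower with siMYBL2, at 75.9 ± 14.0 CPM (log2 fold change -0.73 ± 0.14, adjusted p = 0.00754), while MYBL2 with siFOXM1 had a log2 fold change of -0.06 ± 0.11 (adjusted p = 0.913). With FDI-6 both MYBL2 (-0.51 ± 0.09, adjusted p = 0.00105) and FOXM1 (-0.37 ± 0.08, adjusted p = 0.004) fell as fitted, without the GC and length trend described below. In siBoth MYBL2 averaged 8.55 ± 2.02 CPM (n = 3) and FOXM1 13.3 ± 2.65 CPM, against 174 ± 17.2 and 137 ± 9.18 CPM in siControl_Both. The 9 epithelial and A549 marker genes summed to between 6743 and 14820 CPM per library. Among them EPCAM ranged from 1.67 to 37.55 CPM and CDH1 from 9.52 to 90.37 CPM. The 5 lung lineage genes summed to at most 3.38 CPM, mostly NAPSA, which reached 3.075 CPM. NKX2-1 was at or below 0.254 and SFTPC at or below 0.321 CPM, so NKX2-1 and SFTPC were near absent. Fibroblast genes summed to at most 59.7 CPM, mostly COL1A1, leukocyte genes to at most 15.2 CPM, mostly CD14, and endothelial genes to at most 5.86 CPM. In siMYBL2, siFOXM1 and siBoth, libraries with the same replicate number deviated together from their group means, whereas in FDI-6 they did not. Values from fits that block on replicate number are therefore given beside the knockdown comparisons where they change a call.

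Levels of the 10 genes were compared per kilobase of exon. In siControl, with the union of all annotated exons as length, SMC1A was highest at 28.7 ± 0.696 CPM per kb (SD, n = 4), followed by CDCA5 at 21.6 ± 2.04, RAD21 at 18.02 ± 0.743 and PDS5A at 17.7 ± 1.01. RAD21 and PDS5A did not differ beyond their spread. STAG2 at 13.3 ± 0.865, SMC3 at 11.9 ± 0.525 and WAPL at 10.4 ± 0.752 CPM per kb came next. ESCO2 at 5.84 ± 0.344, STAG1 at 5.44 ± 0.353 and PDS5B at 3.91 ± 0.213 CPM per kb were lowest, and the ESCO2 and STAG1 levels lay about 1 SD apart. The order of the upper genes depended on the length. Per kilobase of the canonical transcript RAD21 led at 70.8 ± 2.92 CPM per kb, and STAG2 (34.5 ± 2.24), CDCA5 (33.99 ± 3.21), SMC3 (33.5 ± 1.48), SMC1A (32.0 ± 0.776) and PDS5A (30.4 ± 1.72) lay close together. STAG1 (7.04 ± 0.456) and PDS5B (6.89 ± 0.377) were again lowest and did not differ beyond their spread. STAG1 shares 21.2% of its exon bases with PCCB on the opposite strand, and the strand setting of the counting is not given in the sources used here, so its level is uncertain by that overlap.

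**Figure D1:**
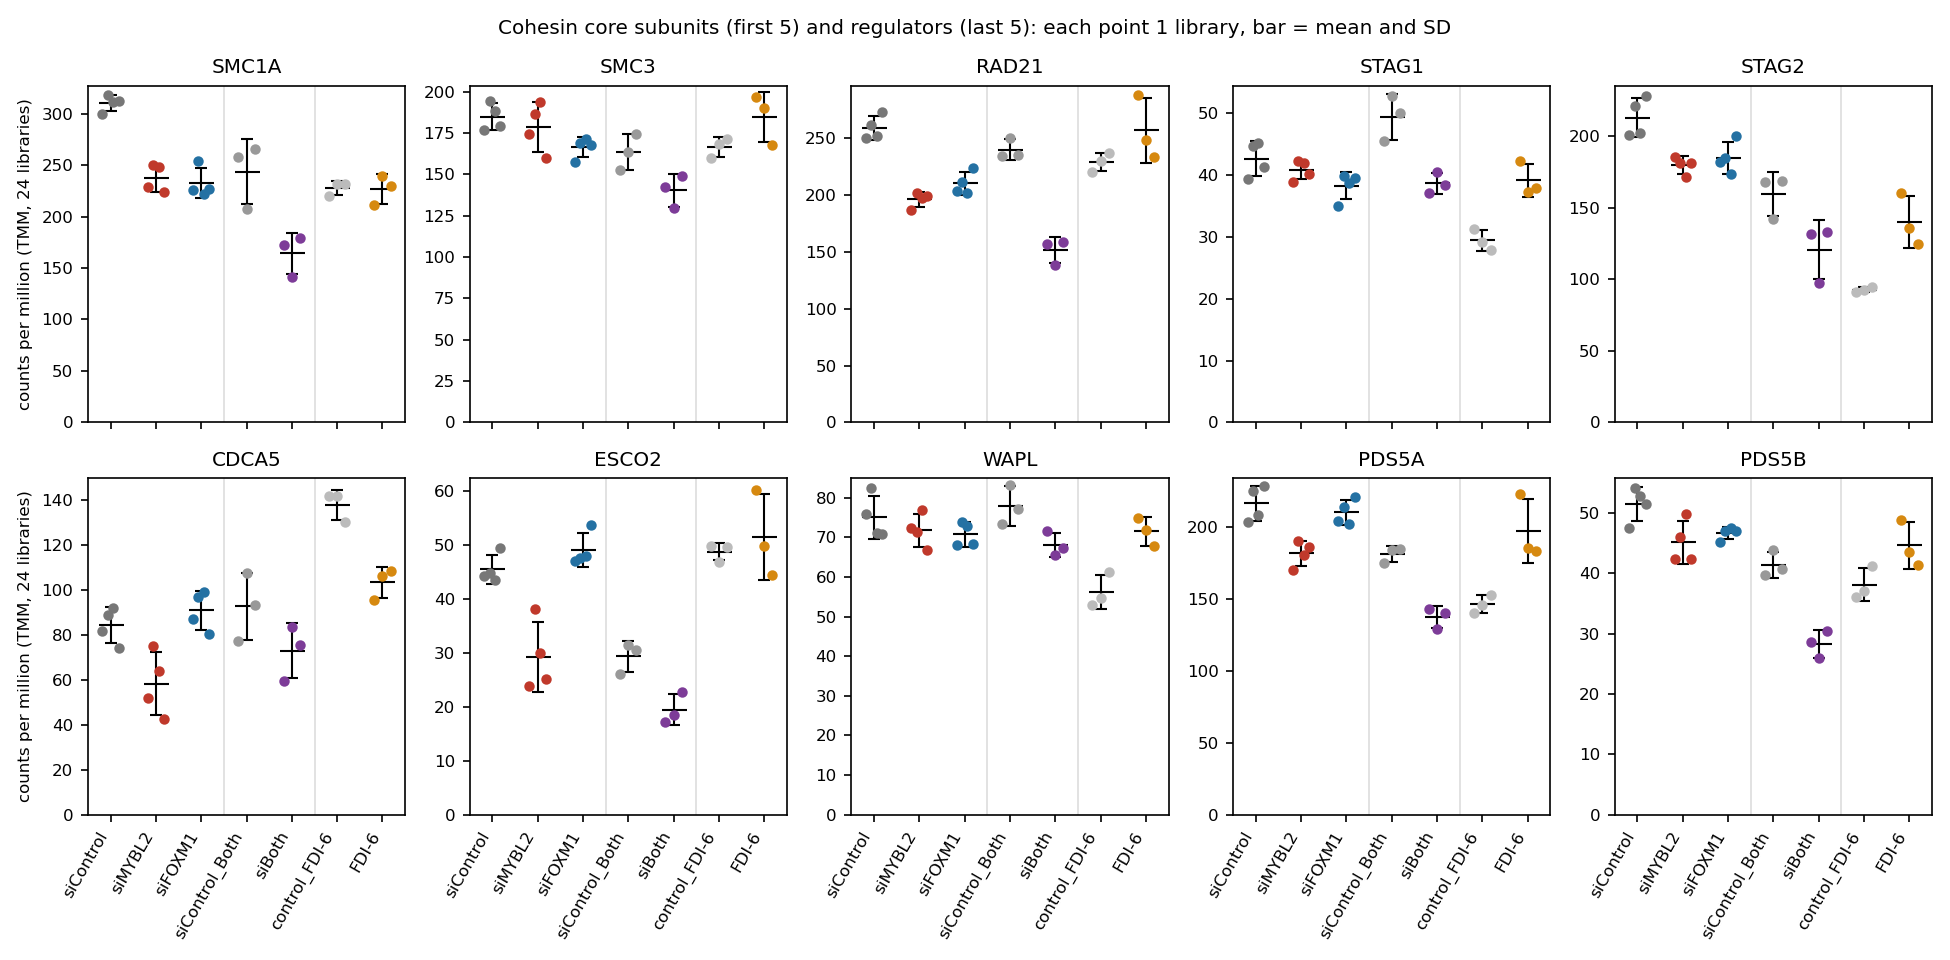
CPM of each gene in each of the 24 libraries, by group, with 1 point per library and the mean and SD of 3 or 4 libraries. SMC1A and RAD21 lie lower in siMYBL2, siFOXM1 and siBoth than in their controls, CDCA5 and ESCO2 lie lower in siMYBL2 but not in siFOXM1, and STAG2 lies higher in FDI-6 than in control_FDI-6.

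The first comparison asked how the genes responded to loss of MYBL2. With siMYBL2, SMC1A, RAD21, STAG2, PDS5A and ESCO2 fell past an adjusted p of 0.05 (edgeR's quasi-likelihood test, Benjamini-Hochberg adjustment over 16065 genes) and none rose. That is 5 of 10, against 9.53% of all genes tested lower and 8.53% higher. With upper-quartile scaling these shares were 7.56% lower and 11.0% higher. ESCO2 alone also fell by more than 1.5-fold, against 3.52% of all genes lower and 4.38% higher by that rule. The 10 log2 fold changes were negative, with a median of -0.25, where the median of all genes was 0.01. Under the replicate block 7 of the 10 fell, against 23.1% of all genes, the added genes being CDCA5 and PDS5B.

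Among the core subunits SMC1A, RAD21 and STAG2 fell, and SMC3 and STAG1 did not pass the test. SMC1A, one of the long coiled arms of the ring, had 229, 249.8, 248.5 and 224 CPM in siMYBL2 replicates 1 to 4 against 300.1, 318, 312 and 312 CPM in siControl. The groups did not overlap, and the log2 fold change was -0.38 ± 0.06 (SE, adjusted p = 0.00361). RAD21, the subunit that closes the ring and is cut at anaphase, had 187, 201, 198 and 199.5 CPM against 249.8, 261, 252 and 273 CPM. It was likewise lower in each siMYBL2 library than in any control, with a log2 fold change of -0.40 ± 0.06 (adjusted p = 0.0022). STAG2, which binds the closed ring, had 186, 182, 171 and 182 CPM against 201, 221, 202 and 228 CPM. The groups did not overlap, but the fall was small, at a log2 fold change of -0.24 ± 0.06 (adjusted p = 0.0288). SMC3, the other arm, had a log2 fold change of -0.05 ± 0.08 (adjusted p = 0.722) and STAG1 one of -0.06 ± 0.07 (adjusted p = 0.586), with overlapping groups for both. In all, 5 of the 10 genes did not overlap between the groups, where 12.3% of all genes tested lay below their controls in that way.

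Among the regulators ESCO2 and PDS5A fell. ESCO2, the acetyltransferase, had 23.9, 38.2, 29.9 and 25.2 CPM with siMYBL2 against 44.2, 44.9, 43.6 and 49.5 CPM in siControl. The highest siMYBL2 library lay below the lowest control, and ESCO2 was 0.644 times its control, a log2 fold change of -0.63 ± 0.14 (adjusted p = 0.0142). Without siMYBL2 replicate 1 or replicate 4 the log2 fold change was -0.55 or -0.56, under 1.5-fold though still past the adjusted p (0.0418 and 0.0304). PDS5A had 170.3, 190.4, 180.2 and 186 CPM against 204, 225, 208 and 229 CPM, which did not overlap, and a log2 fold change of -0.25 ± 0.06 (adjusted p = 0.0259). PDS5B (log2 fold change -0.19 ± 0.08, adjusted p = 0.125) passed with the block (adjusted p = 0.00829) and when the 12 libraries of siMYBL2, siFOXM1 and siControl shared 1 fit without it (0.0446), and WAPL had a log2 fold change of -0.06 ± 0.07 (adjusted p = 0.609).

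CDCA5, the protector of acetylated cohesin, varied widely within the group. It had 51.9, 74.8, 64.0 and 42.5 CPM with siMYBL2 against 81.7, 88.9, 91.9 and 74.1 CPM in siControl. Each siMYBL2 library was lower than the control of the same number, but replicate 2 of siMYBL2 slightly exceeded replicate 4 of siControl. CDCA5 was 0.694 times its control, with a log2 fold change of -0.53 ± 0.16 and an adjusted p of 0.0507. Under the replicate block the log2 fold change was -0.55 ± 0.07 and the adjusted p 2.7e-05, and DESeq2 without the block gave an adjusted p of 0.0151. The shared fit of the 12 libraries without the block gave 0.0213. Without siMYBL2 replicate 2 the log2 fold change was -0.68 (adjusted p = 0.0183), and without siControl replicate 4 it was -0.60 (adjusted p = 0.039). The number of genes that fell was 3 without siMYBL2 replicate 1 or 3 or siControl replicate 2, because STAG2 (adjusted p 0.0616, 0.0735 and 0.0705) and PDS5A (0.0828, 0.0586 and 0.0656) no longer passed. STAG2 also missed without siMYBL2 replicate 4 (adjusted p = 0.056), and both missed with upper-quartile scaling (0.064 and 0.0549).

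The promoter sequences of 3 of these genes are shown because their responses differed. CDCA5 (chromosome 11, 65066300 to 65084164, minus strand) was lower with siMYBL2 than with siFOXM1, SMC1A (chromosome X, 53374149 to 53422728, minus strand) fell in the 3 knockdown comparisons, and SMC3 (chromosome 10, 110567684 to 110606048, plus strand) passed the test in none of them without the block. The 250 bases before the RefSeq start are given 5′ to 3′ on the gene's own strand in GRCh38.p14, for CDCA5 at chr11:65084041-65084290, for SMC1A at chrX:53422729-53422978, upstream of its other annotated start, and for SMC3 at chr10:110567445-110567694. Capitals mark matches to the 4 motifs searched, on either strand.
CDCA5: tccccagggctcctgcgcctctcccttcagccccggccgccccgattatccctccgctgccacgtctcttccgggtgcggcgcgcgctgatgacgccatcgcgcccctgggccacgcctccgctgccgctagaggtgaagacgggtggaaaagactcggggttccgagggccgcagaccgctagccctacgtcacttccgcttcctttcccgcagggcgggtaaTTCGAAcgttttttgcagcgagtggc
SMC1A: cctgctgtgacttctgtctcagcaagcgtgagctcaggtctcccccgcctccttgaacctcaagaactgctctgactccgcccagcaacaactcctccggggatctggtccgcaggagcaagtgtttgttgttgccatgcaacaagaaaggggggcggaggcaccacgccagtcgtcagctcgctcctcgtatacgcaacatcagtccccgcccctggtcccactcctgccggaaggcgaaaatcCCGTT
SMC3: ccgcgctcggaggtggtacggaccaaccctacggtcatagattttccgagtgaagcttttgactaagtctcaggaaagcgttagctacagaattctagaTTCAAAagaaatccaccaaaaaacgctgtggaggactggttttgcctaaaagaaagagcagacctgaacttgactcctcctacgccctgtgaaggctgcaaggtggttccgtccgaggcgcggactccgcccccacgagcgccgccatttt

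The motifs were searched on both strands in the 300 bases from 250 before to 50 after each RefSeq start. The CHR was searched as TTTGAA or TTCGAA, the CCAAT box as CCAAT, an E2F element as TTTGGCG or TTTCGCG, and a MYB element as AACGG. In CDCA5 the word TTCGAA, which reads the same on both strands, began 26 bases before the start. In SMC3 the word TTTGAA lay on the opposite strand and began 151 bases before the start, and in SMC1A the word AACGG lay on the opposite strand and began 5 bases before it. No other word of the 4 motifs was found in these windows. Of 35116 promoter windows, 16.4% held a CHR word, 34.6% a CCAAT word, 3.19% an E2F word and 19.7% the MYB word. Of the other genes, STAG1, PDS5A and WAPL held CCAAT words alone, PDS5B held a CHR, a CCAAT and a MYB word, and the 3 windows of STAG2 held CCAAT and MYB words, CCAAT and E2F words, or none. RAD21 and ESCO2 were not searched and are named only. A match describes these letters and is not shown to be a bound site.

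The second comparison asked the same of FOXM1. With siFOXM1, SMC1A and RAD21 fell past the adjusted p and no gene rose, against 1.09% of all 15892 genes tested lower and 0.277% higher. None of the 10 genes passed both the adjusted p and 1.5-fold in edgeR, where 0.591% of all genes were lower and 0.0755% higher by that rule. DESeq2 called 0 by that rule too, and 6 of the 10 had an unadjusted p under 0.05 in edgeR, against 13% of all genes. The 5 core subunits had negative log2 fold changes with a median of -0.21, and the 5 regulators had a median of -0.05, where that of all genes was 0.00.

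SMC1A had 226, 254, 222 and 227 CPM with siFOXM1, below each of the siControl values given above, and its log2 fold change was -0.42 ± 0.06 (adjusted p = 0.0105). Without siFOXM1 replicate 1 the adjusted p was 0.0578. RAD21 had 204, 212, 202 and 224 CPM, again with no overlap, and a log2 fold change of -0.31 ± 0.06 (adjusted p = 0.0323). This call, from the fit without the replicate block, rested on the whole set of libraries. The adjusted p of RAD21 was between 0.0577 and 0.132 without any one of the siControl libraries or siFOXM1 replicates 1 to 3, and 0.0446 without siFOXM1 replicate 4. The log2 fold change of RAD21 stayed between -0.34 and -0.28 in these 8 fits.

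CDCA5 and ESCO2 did not pass with siFOXM1. CDCA5 had 87.2, 96.8, 99.0 and 80.5 CPM and was higher in each siFOXM1 library than in the control of the same number, though the groups overlapped and the log2 fold change was 0.10 ± 0.09 (adjusted p = 0.729). ESCO2 had 47.0, 47.5, 48.0 and 53.7 CPM, also higher in 4 of 4 same-numbered libraries, with a log2 fold change of 0.10 ± 0.07 (adjusted p = 0.601). When replicate was a block, 6 genes fell, against 14.0% of all genes, and 1 rose, against 12.3%. The genes that fell were the 5 core subunits and PDS5B, with log2 fold changes from -0.43 (SMC1A) to -0.15 (PDS5B), and the gene that rose was CDCA5 (log2 fold change 0.11 ± 0.03, adjusted p = 0.0257). ESCO2 had an adjusted p of 0.0735 in that fit.

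The siMYBL2 and siFOXM1 groups shared their controls, so the difference between the effects was tested in 1 model. CDCA5, ESCO2 and PDS5A differed at an adjusted p under 0.05, each lower with siMYBL2, against 13.2% of all 16538 genes tested lower and 12% higher (with upper-quartile scaling 10.3% lower and 15.1% higher). The difference in log2 fold change was -0.74 ± 0.12 for ESCO2 (adjusted p = 0.000951), -0.64 ± 0.15 for CDCA5 (adjusted p = 0.00747) and -0.21 ± 0.06 for PDS5A (adjusted p = 0.0183). None of the 5 core subunits passed in edgeR without the block, with differences from -0.10 for RAD21 to 0.10 for SMC3. SMC1A, which fell in both knockdowns, differed by 0.03 ± 0.06 (adjusted p = 0.744). The differences of ESCO2 and CDCA5 passed in each of the 12 fits that left out 1 library, with adjusted p of at most 0.00331 and 0.0277, and that of PDS5A missed without siMYBL2 replicate 1 (adjusted p = 0.0619) and with upper-quartile scaling (0.0621). With the replicate block 4 genes were lower with siMYBL2, against 25.7% of all genes, and 1 was higher, against 25.3%. The added genes were RAD21 (-0.10 ± 0.03, adjusted p = 0.0196) and SMC3 (0.10 ± 0.04, adjusted p = 0.0466).

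**Figure D2:**
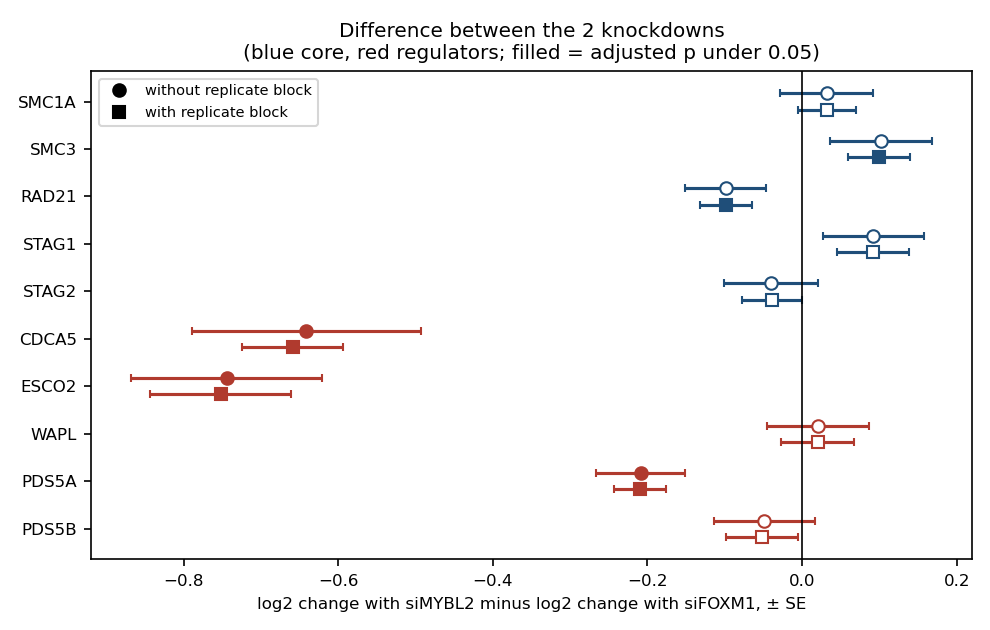
Difference between the siMYBL2 and siFOXM1 effects on each gene (log2 scale, bars are SE), from the model over the libraries of siMYBL2, siFOXM1 and siControl, without and with the replicate block. CDCA5 and ESCO2 lie at -0.64 and -0.74, and the core subunits lie between -0.10 and 0.10.

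The third comparison asked what loss of both factors did. With siBoth, SMC1A, RAD21, STAG1, PDS5A, PDS5B and ESCO2 fell past the adjusted p and none rose, which is 6 of 10, against 7.77% of all 15812 genes tested lower and 4.55% higher (with upper-quartile scaling 5.22% lower and 6.73% higher). RAD21 and ESCO2 also passed 1.5-fold, against 3.64% lower and 2.8% higher. The 10 log2 fold changes were negative, with a median of -0.40, where that of all genes was 0.02. In each of the 10 genes the siBoth library was lower than the control of the same number in 3 of 3, and for 9 genes, all but CDCA5, the groups did not overlap. In that way 18.8% of all genes tested lay below their controls.

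RAD21 had the lowest log2 fold change of the 10 genes, with 157, 138 and 159 CPM in siBoth replicates 1 to 3 against 234, 251 and 236 CPM in siControl_Both. It was 0.631 times its control, a log2 fold change of -0.66 ± 0.09 (adjusted p = 0.00332). ESCO2 had 17.2, 18.4 and 22.7 CPM against 26.1, 31.4 and 30.6 CPM, a log2 fold change of -0.60 ± 0.13 (adjusted p = 0.0264). Both genes lay below every control library. SMC1A had 172, 142 and 179 CPM against 258, 208 and 266 CPM, so replicate 2 was lowest in both groups. Its log2 fold change was -0.57 ± 0.13 (adjusted p = 0.0259). PDS5B had 28.5, 25.9 and 30.4 CPM against 39.7, 43.8 and 40.7 CPM (log2 fold change -0.55 ± 0.09, adjusted p = 0.01). PDS5A (-0.40 ± 0.08, adjusted p = 0.0175) and STAG1 (-0.36 ± 0.09, adjusted p = 0.0369) had smaller log2 fold changes.

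STAG2 did not pass, with 132, 97.1 and 133 CPM against 168, 142 and 169 CPM (log2 fold change -0.40 ± 0.13, adjusted p = 0.0878). CDCA5 did not either, with 59.4, 83.4 and 75.5 CPM against 77.4, 107 and 92.9 CPM (-0.35 ± 0.15, adjusted p = 0.173). In both genes the order of the replicates was the same in the treated and control groups. In the blocked fit STAG2 (adjusted p = 0.000272), CDCA5 (0.00101) and SMC3 (0.0226) also fell, which made 9 of 10, against 18.5% of all genes, and WAPL did not pass (0.0609).

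The calls in siBoth without the replicate block depended on single libraries. No fit left out a library with the block in place. Without siBoth replicate 1 or 2, SMC1A (adjusted p 0.056 and 0.0754), STAG1 (0.0872 and 0.0585) and ESCO2 (0.0738 and 0.085) missed, and STAG1 missed without siBoth replicate 3 (0.0662). Without siControl_Both replicate 2 or 3, STAG1 (0.129 and 0.115), PDS5A (0.0678 and 0.0725) and ESCO2 (0.0938 and 0.0898) missed, and SMC1A missed without siControl_Both replicate 1 or 3 (0.0647 and 0.0906). The number of genes that fell was 3 without siBoth replicate 1, 3 without siBoth replicate 2, 3 without siControl_Both replicate 2 and 2 without siControl_Both replicate 3. The number past 1.5-fold was 1, 1 and 4 without siBoth replicates 1, 2 and 3, and 3, 2 and 1 without siControl_Both replicates 1, 2 and 3. RAD21 and PDS5B passed the adjusted p in these 6 fits, at most 0.0198 and 0.0489. STAG1 also missed with upper-quartile scaling (0.0752).

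Reads that did not align made up 9.09% to 10.9% of all reads in siBoth and 7.68% to 7.92% in siControl_Both, and at most 3.03% in the other groups. Fold changes with siBoth also moved with the base composition of the transcript. Over 15747 genes the Spearman correlation of the log2 fold change with the GC content of the canonical transcript was 0.33, and with its length -0.23, a description over genes that share the same libraries. All members but CDCA5 (55.1% GC) are below the median GC content of all genes, 48.9%. After a trend in GC content and length was fitted in each library, SMC1A (-0.45 ± 0.12, adjusted p = 0.0449), RAD21 (-0.53 ± 0.07, adjusted p = 0.00295) and PDS5B (-0.31 ± 0.08, adjusted p = 0.0476) still fell, against 6.96% of all genes, and 0 of the 10 genes passed the adjusted p together with 1.5-fold. With the trend and the replicate block together 7 of 10 fell, against 18% of all genes, among them ESCO2 (-0.43 ± 0.07, adjusted p = 0.000743) and CDCA5 (-0.44 ± 0.06, adjusted p = 8.42e-05). The part of base composition and of alignment in these fold changes was not tested.

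Whether siBoth differed from siMYBL2 was tested as the difference between the effects. None of the 10 genes passed, in edgeR or in DESeq2, against 0.176% of all 17012 genes tested lower. At an unadjusted p under 0.05, 3 of 10 passed in edgeR, against 7.78% of all genes. The differences ranged from -0.36 ± 0.12 for PDS5B (adjusted p = 0.464) to 0.18 ± 0.25 for CDCA5 (adjusted p = 0.927). In the blocked fit STAG1 (-0.29 ± 0.08, adjusted p = 0.0404) and PDS5B (-0.36 ± 0.10, adjusted p = 0.0371) were lower with siBoth, against 4.79% of all genes. With the GC and length trend as well, neither passed (adjusted p 0.44 and 0.431). These experiments had separate controls and differed in the share of unaligned reads.

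**Figure D3:**
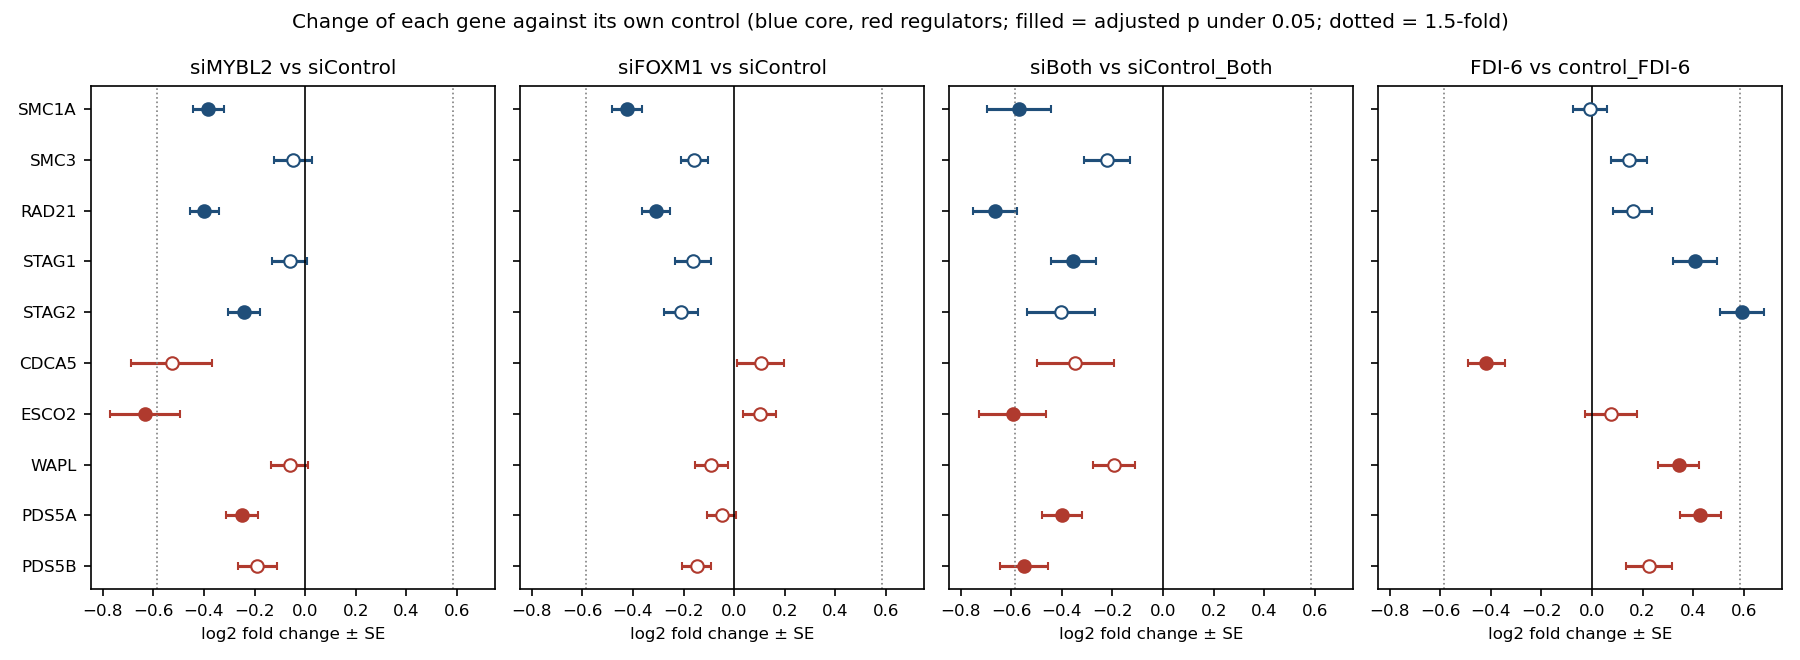
Log2 fold change of each gene against its own control in the 4 comparisons, with SE as bars and dotted lines at 1.5-fold. Filled points passed an adjusted p of 0.05. The siMYBL2 and siBoth values of all 10 genes lie below 0, and with FDI-6 8 of 10 lie above 0 while CDCA5 lies at -0.42.

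The fourth comparison asked how the genes responded to FDI-6. As fitted, STAG1, STAG2, WAPL and PDS5A rose past the adjusted p and CDCA5 fell, against 21.0% of all 15240 genes tested higher and 17.9% lower. STAG2 alone passed 1.5-fold, against 8.0% higher and 5.77% lower. STAG2 had 160.0, 136 and 125 CPM in FDI-6 replicates 1 to 3 against 91.4, 92.4 and 94.4 CPM in control_FDI-6. The groups did not overlap, and STAG2 was 1.51 times its control (log2 fold change 0.59 ± 0.09, adjusted p = 0.000309). Without FDI-6 replicate 1 or control_FDI-6 replicate 1 the log2 fold change was 0.49 or 0.58, under 1.5-fold and past the adjusted p, and with upper-quartile scaling it was 0.55 (adjusted p = 0.000516). PDS5A had 223, 185 and 183 CPM against 140.2, 145 and 153 CPM (0.43 ± 0.08, adjusted p = 0.0016). STAG1 had 42.2, 37.2 and 37.9 CPM against 31.3, 29.2 and 27.9 CPM (0.41 ± 0.09, adjusted p = 0.00359), and WAPL had 74.9, 71.8 and 67.7 CPM against 53.0, 54.6 and 61.2 CPM (0.34 ± 0.08, adjusted p = 0.00581). None of these 3 genes overlapped between the groups. In all, 6 of the 10 genes did not overlap, STAG1, STAG2, WAPL, PDS5A and PDS5B above their controls and CDCA5 below. Of all genes tested, 26.7% lay above and 24.8% below their controls in that way.

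CDCA5 went the other way, with 95.4, 106 and 108 CPM in FDI-6 against 142, 141 and 129.9 CPM in control_FDI-6. Each FDI-6 library was below each control, and CDCA5 was 0.749 times its control (log2 fold change -0.42 ± 0.07, adjusted p = 0.00109). ESCO2 had 60.2, 49.9 and 44.5 CPM against 49.8, 46.9 and 49.6 CPM, and its log2 fold change of 0.07 ± 0.10 did not pass (adjusted p = 0.595). SMC1A was close to its control (log2 fold change -0.01 ± 0.07, adjusted p = 0.938). SMC3 (0.15 ± 0.07), RAD21 (0.16 ± 0.08) and PDS5B (0.22 ± 0.09) did not pass, with adjusted p of 0.123, 0.121 and 0.0685. They passed without FDI-6 replicate 3 (adjusted p 0.0328, 0.0367 and 0.0441), where 8 genes did. SMC3, RAD21 and PDS5B were each highest in FDI-6 replicate 1 and lowest in replicate 3.

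In FDI-6 the direction of several members depended on the GC and length trend. Over 15176 genes the Spearman correlation of the log2 fold change with GC content was -0.49 and with transcript length 0.39. PDS5B (36.4% GC), STAG2 (36.6%), SMC3 (37.3%) and ESCO2 (37.4%) had the lowest GC content of the members. After the trend was fitted, STAG2 rose less (0.18 ± 0.05, adjusted p = 0.0163) and PDS5A, STAG1 and WAPL no longer passed (log2 fold changes 0.08, 0.07 and 0.02). CDCA5 still fell (-0.27 ± 0.05, adjusted p = 0.000729). SMC1A (-0.29 ± 0.06, adjusted p = 0.000925), SMC3 (-0.22 ± 0.05, adjusted p = 0.00404), PDS5B (-0.23 ± 0.06, adjusted p = 0.0113) and ESCO2 (-0.20 ± 0.07, adjusted p = 0.0272) then fell, where SMC3, PDS5B and ESCO2 had been above 0 as fitted. In that fit 5 of 10 were lower, against 16.7% of all genes, and 1 was higher, against 14.9%. CDCA5 was thus lower and STAG2 higher with or without the trend. The part of base composition was not tested.

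**Figure D4:**
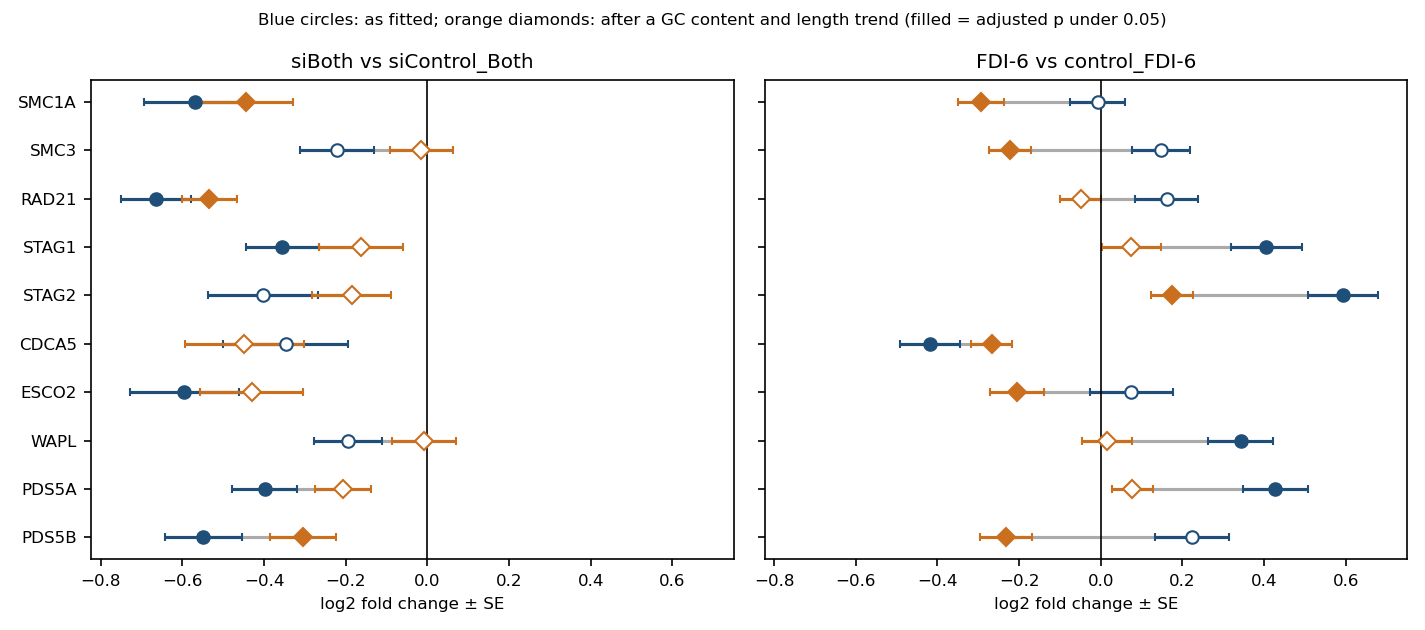
Log2 fold change of each gene (bars are SE) as fitted and after a trend in GC content and transcript length was fitted in each library, for siBoth and FDI-6. In FDI-6 the values of SMC3, RAD21, PDS5B and ESCO2 cross 0 and that of CDCA5 stays below 0, and in siBoth the values of the 10 genes stay below 0.

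FDI-6 and siFOXM1 are both directed at FOXM1, and the difference of their effects was tested in 1 model. As fitted, 8 genes were higher with FDI-6 than with siFOXM1 and CDCA5 was lower, against 12.3% of all 17026 genes tested higher and 8.64% lower (with upper-quartile scaling 11.4% lower and 10.5% higher). ESCO2 alone did not pass (-0.03 ± 0.13, adjusted p = 0.9). The difference was 0.80 ± 0.12 for STAG2 (adjusted p = 0.000344) and -0.53 ± 0.13 for CDCA5 (adjusted p = 0.00891). With the GC and length trend and no replicate block, 2 of 10 differed, against 6.26% of all genes higher and 5.6% lower. They were STAG2 (0.32 ± 0.07, adjusted p = 0.0108) and ESCO2 (-0.36 ± 0.09, adjusted p = 0.0224). SMC3 and PDS5B turned from higher to lower (-0.12 and -0.15, neither past the test). CDCA5 had a difference of -0.34 in that fit (adjusted p = 0.0742). As fitted, the SMC3 difference missed in 7 of the 14 fits that left out 1 library, namely siFOXM1 replicate 1, siControl replicate 2 or 3, FDI-6 replicate 1 or 2, or control_FDI-6 replicate 1 or 2 (adjusted p between 0.0527 and 0.0893). That of PDS5B missed without control_FDI-6 replicate 1 or 2 (0.0698 and 0.0606). With upper-quartile scaling SMC3 missed too (0.0748).

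Some members are alternatives for the same place in the complex, and their ratio within a library is given as a description. STAG2 to STAG1, per kilobase of union exon, was 2.46 ± 0.213 in siControl (SD, n = 4), 2.17 ± 0.145 in siMYBL2 and 2.37 ± 0.168 in siFOXM1. It was 1.60 ± 0.251 (n = 3) in siControl_Both, 1.54 ± 0.317 in siBoth, 1.55 ± 0.115 in control_FDI-6 and 1.75 ± 0.125 in FDI-6. The range of each treated group overlapped that of its control, and the ratio was lower than in the control of the same number in 4 of 4 libraries with siMYBL2, 2 of 4 with siFOXM1 and 2 of 3 with siBoth. PDS5A to PDS5B was 4.54 ± 0.227 in siControl, 4.37 ± 0.354 in siMYBL2 and 4.86 ± 0.204 in siFOXM1, lower than the same-numbered control in 4 and 0 of 4 libraries. It was 4.73 ± 0.187 in siControl_Both against 5.26 ± 0.240 in siBoth, and 4.15 ± 0.127 in control_FDI-6 against 4.77 ± 0.162 in FDI-6. Treated and control libraries did not overlap in either. Per kilobase of the canonical transcript, the siControl ratios were 4.91 for STAG2 to STAG1 and 4.41 for PDS5A to PDS5B.

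SMC3 had the log2 fold change nearest 0 of the ring subunits in the 3 knockdown comparisons. Per kilobase of union exon, SMC1A to SMC3 was 2.41 ± 0.0666 in siControl, 1.91 ± 0.0712 in siMYBL2 and 2.002 ± 0.130 in siFOXM1. It was lower in each library of siMYBL2 and siFOXM1, with ranges of 2.35 to 2.49, 1.84 to 2.003 and 1.86 to 2.16 in the same order. Per kilobase of the canonical transcript it was 0.957, 0.7585 and 0.795 in these groups. The length used changes the level of a ratio but not its direction of change. RAD21 to SMC3, again per kilobase of union exon, was 1.52 ± 0.0934 in siControl, 1.19 ± 0.107 in siMYBL2 and 1.36 ± 0.0732 in siFOXM1. In siBoth it was 1.16 ± 0.0195 against 1.59 ± 0.113 in siControl_Both, and in FDI-6 1.497 ± 0.0833 against 1.48 ± 0.00977.

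Of 27 further genes of the cohesin pathway, 25 were tested in the knockdown comparisons and 26 with FDI-6. With siMYBL2 9 fell and none rose (median log2 fold change -0.28), with siFOXM1 1 fell (-0.07), with siBoth 12 fell (-0.33), and with FDI-6 8 fell and 3 rose (-0.15). Of all genes tested, 9.53%, 1.09%, 7.77% and 17.9% fell in these comparisons, and 21.0% rose with FDI-6. The siBoth and FDI-6 counts of this list and of its roles are given without the GC and length trend. The values of single pathway genes below are too, except where the trend is named. With the replicate block 19 were lower and 2 higher with siMYBL2, 8 and 2 with siFOXM1, and 15 and 1 with siBoth. The shares of all genes lower and higher in the blocked fits were 23.1% and 23.6% with siMYBL2, 14.0% and 12.3% with siFOXM1, and 18.5% and 16.3% with siBoth. Of the 5 genes of cleavage and release (ESPL1, PTTG1, PLK1, AURKB and CDC20), 4 fell with siMYBL2, 1 with siFOXM1, 5 with siBoth and 4 with FDI-6. Of 9 genes of cohesion at the replication fork, 2, 0, 1 and 3 fell in the same order, and 1 rose with FDI-6. Of 4 genes of protection at centromeres, 1, 0, 4 and 0 fell. Of the 2 other genes of the acetylation cycle, ESCO1 and HDAC8, none passed in the knockdowns.

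Separase (ESPL1), the protease that cuts RAD21, averaged 42.3 ± 9.79 CPM with siMYBL2 against 68.9 ± 10.2 in siControl (log2 fold change -0.70 ± 0.17, adjusted p = 0.0208), and 48.3 ± 4.52 CPM with siBoth against 87.6 ± 2.42 (-0.86 ± 0.09, adjusted p = 0.00123). AURKB, the kinase of the chromosomal passenger complex, had a log2 fold change of -0.89 ± 0.19 (adjusted p = 0.012) with siMYBL2 and -0.97 ± 0.11 (adjusted p = 0.0021) with siBoth. PLK1, a mitotic kinase that loosens cohesin on chromosome arms, had log2 fold changes of -0.71 and -0.78 (adjusted p 0.0059 and 0.00169). The difference between siMYBL2 and siFOXM1 passed for ESPL1 (-0.62 ± 0.17, adjusted p = 0.0168), PLK1 (-0.63 ± 0.12, adjusted p = 0.00204) and AURKB (-0.86 ± 0.18, adjusted p = 0.00478). Securin (PTTG1), the inhibitor of separase, was the 1 pathway gene that fell with siFOXM1 (-0.52 ± 0.07, adjusted p = 0.0112), and it passed 1.5-fold with siBoth (-0.74 ± 0.12, adjusted p = 0.00821).

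Shugoshin 1 (SGO1), which protects centromeric cohesin, fell with siMYBL2 (-0.65 ± 0.11, adjusted p = 0.00422) and with siBoth (-0.74 ± 0.15, adjusted p = 0.0184), and SGO2 fell with siBoth (-0.67 ± 0.14, adjusted p = 0.0221). TIPIN, a replication fork protein, fell with siBoth (-0.61 ± 0.15, adjusted p = 0.0376) and missed with the GC and length trend (adjusted p = 0.0576). As fitted, TIPIN rose with FDI-6 (0.34 ± 0.09, adjusted p = 0.009975). The loader NIPBL fell with siMYBL2 (-0.28 ± 0.08, adjusted p = 0.038) and siBoth (-0.41 ± 0.08, adjusted p = 0.0155). It did not pass with siFOXM1 (-0.03 ± 0.08, adjusted p = 0.928). With FDI-6 NIPBL rose (0.62 ± 0.11, adjusted p = 0.00112), as did ESCO1, a paralog of ESCO2 (0.65 ± 0.12, adjusted p = 0.00166). With the GC and length trend NIPBL did not pass (0.17 ± 0.07, adjusted p = 0.0797) and ESCO1 rose less (0.30 ± 0.09, adjusted p = 0.0198). The meiotic paralog STAG3 fell with FDI-6, from 5.46 ± 1.25 to 2.47 ± 0.243 CPM (-1.14 ± 0.21, adjusted p = 0.00146).

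**Figure D5:**
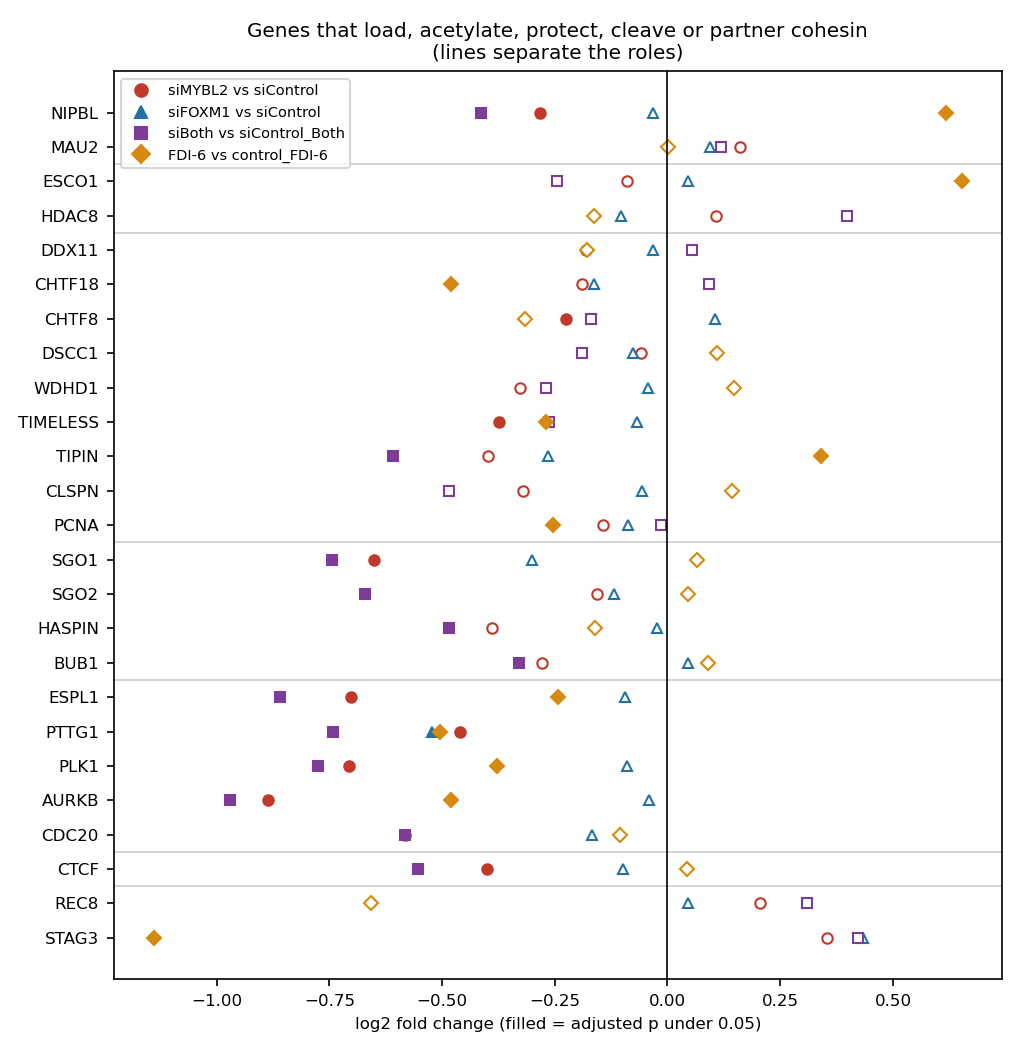
Log2 fold change of the further genes of the cohesin pathway in the 4 comparisons, by symbol and colour, with filled symbols past an adjusted p of 0.05. ESPL1, PTTG1, PLK1 and AURKB are filled and below 0 for siMYBL2, siBoth and FDI-6.

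Genes of cycling cells also moved with these treatments. Of 54 genes of the G2/M list, 31 fell and none rose with siMYBL2 (median log2 fold change -0.41), 6 fell with siFOXM1 (-0.13), 38 fell with siBoth (-0.63) and 23 fell and 5 rose with FDI-6 (-0.14). The shares of all genes that fell were those given for the pathway list. The siBoth and FDI-6 counts of the G2/M and S phase lists are given without the GC and length trend. So are the siBoth and FDI-6 values of MKI67, TOP2A, CCNB1 and CDK1 below. Of 42 S phase genes tested, 12 fell with siMYBL2 (-0.33), 1 with siFOXM1 (-0.11) and 12 with siBoth (-0.35), and 10 fell and 4 rose with FDI-6 (-0.06). With the replicate block 33 G2/M genes fell and 3 rose with siFOXM1, and 35 S phase genes fell and 2 rose with siMYBL2, where 14.0% and 23.1% of all genes fell. MKI67, a marker of proliferating cells, had a log2 fold change of -0.91 ± 0.19 with siMYBL2 (adjusted p = 0.012), -0.32 ± 0.13 with siFOXM1 (adjusted p = 0.349), -1.504 ± 0.09 with siBoth (adjusted p = 0.000152) and -0.03 ± 0.06 with FDI-6 (adjusted p = 0.72). TOP2A, a topoisomerase of S and G2 phase, had log2 fold changes of -0.89 ± 0.16, -0.06 ± 0.09, -1.01 ± 0.11 and -0.03 ± 0.08 in the same order (adjusted p 0.00542, 0.869, 0.00121 and 0.783).

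CCNB1 and CDK1, which form the kinase that starts mitosis, fell with siMYBL2 (log2 fold changes -0.77 and -0.62), siFOXM1 (-0.68 and -0.69) and siBoth (-1.22 and -1.11), with adjusted p of at most 0.00659. As fitted, without the GC and length trend, CCNB1 fell with FDI-6 (-0.38 ± 0.07, adjusted p = 0.00173) and CDK1 did not pass (-0.13 ± 0.08, adjusted p = 0.227). In bulk RNA, fewer cells in S, G2 or mitosis and less RNA of a gene per cell cannot be told apart. The part of the cell cycle in the changes of CDCA5 and ESCO2 was not tested.

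The genes whose pattern over the 24 libraries was most like that of CDCA5 were found, among the 11369 genes that averaged 100 counts or more, by the Pearson r of log2(CPM + 1) minus the mean of the own control group. The libraries share controls and base composition, so r is a description. For CDCA5 the 5 highest were FANCG (0.95), NXT1 (0.95), RUSC1 (0.95), TIMM50 (0.94) and SGTA (0.94). CDCA5 and ESCO2 had an r of 0.68 with each other. CDCA5 had an r between -0.15 (STAG2) and 0.23 (SMC1A) with the 5 core subunits and ESCO2 one between 0.46 (SMC3) and 0.73 (RAD21), while pairs among those subunits had an r between 0.60 and 0.86.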

How the data were processed

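The authors trimmed reads of polyA-captured, 150 bp paired-end libraries with Trim Galore, aligned them to hg38 with STAR and the GENCODE V29 annotation, and deposited HTSeq read counts per gene, not normalized, for each of the 24 libraries. Tool versions and the strand setting are not given in the sources used here. Rows that name no gene were left out. Of all reads, 3.36% to 4.93% had no feature, 7.88% to 11.2% were ambiguous, 1.73% to 10.9% did not align and 2.29% to 4.14% were not unique. Of 58721 identifiers 58207 matched GENCODE V44, which gave symbols, positions, lengths and GC content.

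Each treatment was compared with its own control by the quasi-likelihood test of edgeR 4.0.16 in R 4.3.3, with TMM factors, the default filter on low counts and Benjamini-Hochberg adjustment over all genes tested. Differences between effects were tested in 1 model. A gene passed at an adjusted p under 0.05, and the stricter rule added a fold change over 1.5. SE is the log2 fold change divided by the root of the F statistic. Displayed CPM used TMM factors over 24 libraries, and fitted log2 fold changes differed from those of mean CPM by at most 0.0064. DESeq2 1.42.0, other scalings and filters, a fold threshold in the test (glmTreat), a replicate block, 1 fit over the single-knockdown libraries, each library left out, and a per-library trend in GC content and canonical transcript length (splines of 5 degrees of freedom, genes that averaged 50 counts or more) were alternatives. The trend for the differences between effects was added after seeing the data. The fits that left out a library did not use the replicate block. The main test was also run on simulated counts drawn without a replicate effect, so that run does not bear on the pairing of libraries.

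The replicate numbers were checked by correlating, between libraries of the same number, each gene's departure from its group mean. The correlations lay between 0.573 and 0.875 for siMYBL2, 0.539 and 0.906 for siFOXM1 and 0.553 and 0.688 for siBoth, so the numbers were taken to pair these libraries. The labels do not say what a number marks, so the pairing comes from the data. No pair of libraries in a group agreed within counting noise, with a chi-square per degree of freedom of at least 3.57 in 30 pairs. Within FDI-6 this value was 12.94 and 18.85 between replicate 1 and replicates 2 and 3, and 3.885 between replicates 2 and 3. Promoter sequences are from RefSeq (GRCh38.p14) and cover 8 of 10 genes. Windows on chromosome 8, where RAD21 and ESCO2 lie, were left out of the search of the members. The text names the 10 genes, MYBL2 and FOXM1, genes of the pathway list past both thresholds in any of the 4 comparisons, 4 cycling markers, and the 5 genes most like CDCA5. The genes most like ESCO2 are not reported here. CDC20, HDAC8 and PCCB are named outside that rule. The genes and lists were chosen with earlier results of these data known.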

Additional observations from a re-analysis of the deposited data

Results flagged for a closer look

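Of the 30 sets of 4 libraries tested, 10 genes in each of siControl, siMYBL2 and siFOXM1, 2 had a library far from the others. SMC1A was highest in siFOXM1 replicate 2, at 254 CPM, and its gap to the next library was 0.845 of the range. ESCO2 was highest in siFOXM1 replicate 4, at 53.7 CPM, with a gap of 0.847 of the range. Both gaps exceeded Dixon's critical value for 4 libraries at the 95% level, which chance passes in about 1 in 20 groups.

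CDCA5 (-0.641), ESCO2 (-0.744) and PDS5A (-0.209) differed between the siMYBL2 and siFOXM1 effects on the log2 scale, by the test of the difference.

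Between the FDI-6 and siFOXM1 effects, which have separate controls, STAG2 (0.800), STAG1 (0.565), PDS5A (0.475), RAD21 (0.467), WAPL (0.431), SMC1A (0.413), PDS5B (0.370) and SMC3 (0.302) were higher with FDI-6 and CDCA5 (-0.525) was lower. With the GC and length trend and no replicate block, STAG2 alone of these 9 still passed. More members passed with the trend and the block together, as given below.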

How the results depend on the processing

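CDCA5 and ESCO2 were lower with siMYBL2 than with siFOXM1, and RAD21 and SMC1A fell with siMYBL2, in the fits with upper-quartile scaling, DESeq2, the replicate block and the GC and length trend. With upper-quartile scaling 3 members passed the adjusted p with siMYBL2, 0 also 1.5-fold, and SMC3 turned to 0.0049. That scaling left 1 member past both thresholds with siBoth and 0 with FDI-6, and turned the siMYBL2 minus siFOXM1 differences of STAG2 and PDS5B to 0.0144 and 0.0048. Without a filter on low counts 1 member passed with siFOXM1, and 1545 genes in all passed both thresholds with siBoth against 1019. When the fold of 1.5 was part of the test (glmTreat), 0 members passed in any of the 4 comparisons, and 199, 14, 128 and 496 genes in all with siMYBL2, siFOXM1, siBoth and FDI-6, against 1269, 106, 1019 and 2098. DESeq2 gave 138 genes for siBoth minus siMYBL2 against 30.

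With the replicate block, genes past both thresholds numbered 1991, 401 and 1849 for siMYBL2, siFOXM1 and siBoth, and 7 members passed the adjusted p with siFOXM1. Genes whose effects differed numbered 8435 for siMYBL2 minus siFOXM1 (5 members), 1200 for siBoth minus siMYBL2 (2 members) and 6523 for FDI-6 minus siFOXM1, against 4179, 30 and 3566. For FDI-6, whose same-numbered pairs had correlations from -0.288 to 0.161, the block gave 2013 genes in all and the same 5 members. Beyond the calls given with each comparison, the block changed no call of a member.

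With the GC and length trend, 3 members passed the adjusted p and 0 both thresholds with siBoth. With FDI-6 0 passed both, 1334 genes did in all, and SMC3, RAD21, PDS5B and ESCO2 turned to -0.222, -0.0492, -0.232 and -0.205. For siBoth minus siMYBL2 17 genes passed, and SMC3, STAG2, WAPL and PDS5A turned to 0.0142, 0.0413, 0.0414 and 0.0356. For FDI-6 minus siFOXM1 2 members and 2020 genes passed, and SMC3 and PDS5B turned to -0.124 and -0.146. With the trend and the block, 1986, 386, 1594 and 1277 genes passed both thresholds with siMYBL2, siFOXM1, siBoth and FDI-6, 6 members the adjusted p with siFOXM1, and 0 members both thresholds with siBoth and 0 with FDI-6. In that fit SMC3, RAD21, PDS5B and ESCO2 had -0.223, -0.0497, -0.231 and -0.207 with FDI-6. The differences then passed for 8554 genes and 5 members (siMYBL2 minus siFOXM1), 658 genes (siBoth minus siMYBL2) and 5503 genes and 4 members (FDI-6 minus siFOXM1). SMC3, STAG2, WAPL and PDS5A had 0.0191, 0.0411, 0.0433 and 0.0379 for siBoth minus siMYBL2, and SMC3 and PDS5B -0.124 and -0.146 for FDI-6 minus siFOXM1.

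Leaving out 1 library at a time gave 3 to 6 members past the adjusted p and 0 to 2 past both thresholds with siMYBL2, where SMC3 ranged from -0.0921 to 0.0069. With siFOXM1 0 to 2 members and 56 to 115 genes passed. With siBoth 2 to 5 members passed the adjusted p, 1 to 4 both thresholds and 587 to 1097 genes both. With FDI-6 5 to 8 members passed the adjusted p and 0 to 1 both thresholds, with SMC1A from -0.0511 to 0.0441 and ESCO2 from -0.0474 to 0.166. The differences ranged from -0.0139 to 0.0607 for WAPL (siMYBL2 minus siFOXM1), from -0.0926 to 0.195 for ESCO2 with 7 to 30 genes (siBoth minus siMYBL2), and from -0.154 to 0.0728 for ESCO2 with 2365 to 4073 genes (FDI-6 minus siFOXM1). The cause of these changes was not tested, and with 3 or 4 libraries a group small changes may not be detectable.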

Other observations

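The 3 control groups, which come from separate experiments, differed in level, given here with no test. STAG2 averaged 213 ± 13.8 CPM in siControl (SD, n = 4), 159.7 ± 15.2 in siControl_Both (n = 3) and 92.7 ± 1.56 in control_FDI-6 (n = 3). CDCA5 averaged 84.1 ± 7.95, 92.5 ± 14.9 and 138 ± 6.67 CPM in the same order, so it was highest where STAG2 was lowest. SMC1A averaged 311 ± 7.53, 244 ± 31.8 and 228 ± 6.81 CPM. RAD21 averaged 259 ± 10.7, 240.0 ± 9.13 and 229 ± 8.18 CPM. ESCO2 averaged 45.5 ± 2.69, 29.4 ± 2.88 and 48.8 ± 1.60 CPM and was lowest in siControl_Both. What set these experiments apart beyond their treatment is not given in the labels. CDCA5 has the highest GC content of the members, 55.1%, and STAG2 has 36.6%. The part of base composition in these levels was not tested.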
